A study of Mus musculus with 6 samples.

Results

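Integrins are the main cell surface receptors for the ECM. Each receptor is a pair of 1 α and 1 β chain that spans the plasma membrane, and the pairing sets which matrix protein is bound. The α3 and α6 chains bind laminins of basement membranes, the α1 and α2 chains bind collagens, and the α5 and αv chains bind proteins that carry the Arg-Gly-Asp (RGD) motif, such as fibronectin, vitronectin and the latent form of TGF-β. The β1 chain pairs with all of these α chains, β4 only with α6, and β3 and β8 with αv. In blood vessels, integrins anchor ECs to their basement membrane, and in the choroid the basement membrane of the ECs forms the outer layer of Bruch's membrane beneath the RPE.

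The 10 subunits described here (Itga3, Itga6, Itgb4, Itga1, Itga2, Itga5, Itgav, Itgb3, Itgb8 and Itgb1) were chosen by gene symbol, 10 of the 22026 symbols listed, and grouped by the ligand of the receptor they form. RNAseq was carried out on choroid ECs of 129/B6 mice at postnatal day 5 (P5) and postnatal day 30 (P30), with 3 isolations per age and 7 animals pooled in each isolation. At both ages a fluorescent antibody to VE-Cadherin was injected into the living animal, the neural retina was removed, the RPE/choroid was digested, and the labelled (VE-Cadherin+) cells were collected in a flow sorter. The P5 animals received less antibody than the P30 animals and were anaesthetized by hypothermia. This handling differed with age and cannot be told apart from it. The P30 animals were of both sexes, the labels name no transgene or treatment, and the isolations of an age were independent. Values are FPKM, fragment numbers scaled to transcript length and library size, so levels of different subunits can be set side by side.

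The identity of the sorted cells was checked first with lists of cell type markers. The 10 endothelial markers summed to between 19897 and 20580 FPKM at P5 and between 27612 and 33082 FPKM at P30, and 6 of them were higher and 1 lower in every P30 than in every P5 isolation. The lower one was Cdh5, which encodes VE-Cadherin, the protein used for the sort, with means of 2971 FPKM at P5 and 1885 FPKM at P30, while the sum was carried mainly by Plvap (4692 and 11590 FPKM) and Emcn (3002 and 5523 FPKM). Sums of markers of some neighbouring cells also differed with age, and counts in brackets give the markers with every P30 isolation on the same side of P5. Of all genes tested, 22.0% were higher and 33.0% lower in every P30 isolation, so small counts in a list are near that share. The 8 RPE markers (8 higher) summed to 69.7 to 151 FPKM at P5 and to 3913, 2181 and 522 FPKM in P30 replicates 1, 2 and 3, and the 8 photoreceptor markers (6 higher) to 16.3 to 28.3 FPKM and to 407, 281 and 59.0 FPKM. The 7 pericyte markers (4 higher) summed to 1765, 933 and 497 FPKM in P5 replicates 1, 2 and 3 and to 1872, 6290 and 3857 FPKM at P30. The ranges at P5 and P30 were 253 to 577 and 1228 to 2578 FPKM for 8 fibroblast markers (5 higher), 244 to 404 and 1009 to 1415 FPKM for 8 Schwann cell markers (6 higher), and 537 to 563 and 613 to 1255 FPKM for 7 smooth muscle markers (5 higher). They were 147 to 507 and 141 to 1293 FPKM for 8 melanocyte markers (1 higher, 1 lower), and 4336 to 5999 and 4585 to 7599 FPKM for 8 markers of Müller cells and astroglia (3 higher, 1 lower), of which Aqp4 was listed at 0 in all 6 isolations. The 8 macrophage and leukocyte markers (5 lower) summed to 927 to 1186 FPKM at P5 and 335 to 928 FPKM at P30, and the 8 platelet markers (2 higher, 1 lower) to 450 to 504 FPKM and 90.8 to 237 FPKM. The 10 cell cycle markers, all 10 lower at P30, summed to between 813 and 1462 FPKM at P5 and to between 9.23 and 18.9 FPKM at P30. Markers of surface epithelium stayed at or below 6.08 FPKM in sum, and Krt5, Krt14, Epcam and Krt17 were listed at 0 in all isolations. In such sorted bulk samples, fewer cells of a type and less RNA per cell cannot be told apart. Below, the order of the 3 isolations of an age is compared between subunits and these 13 lists. With 3 isolations an order can be shared without a link, and how many of all genes share each order was not counted.

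**Figure D1:**
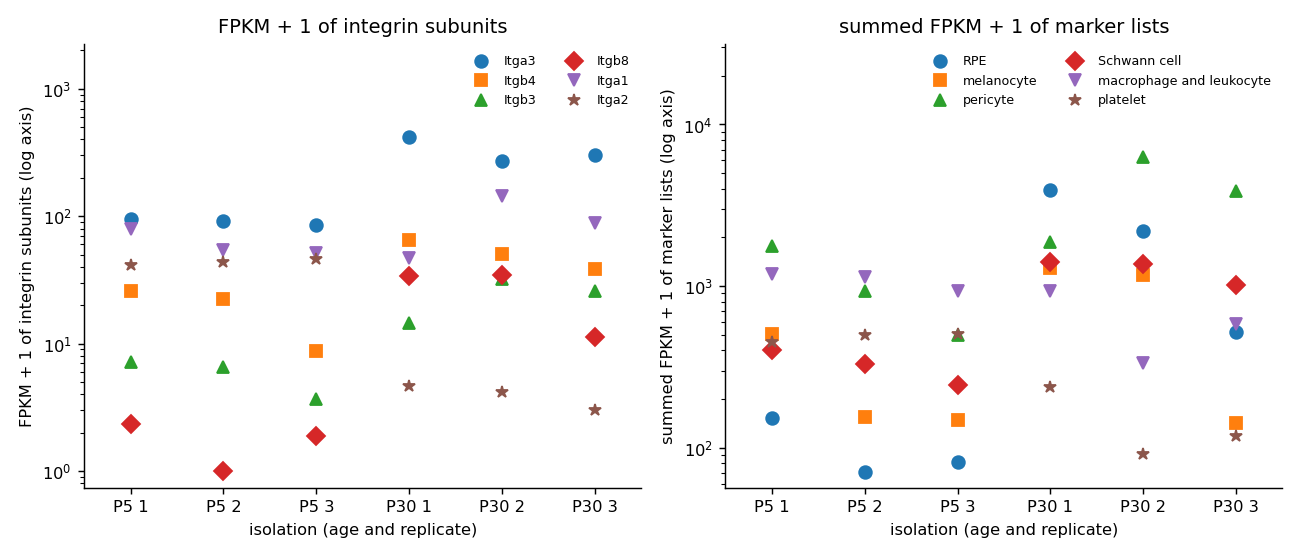
FPKM + 1 of 6 integrin subunits (left) and summed FPKM + 1 of 6 marker lists (right) in each of the 6 isolations, on log axes, with 1 point per gene or list and isolation. Itgb3 and the pericyte markers are highest in P30 replicate 2. In P30 replicate 3, Itgb8 is at 10.3 FPKM, and the RPE (522 FPKM), melanocyte and Schwann cell sums are the lowest of P30.

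Differences between ages were tested with limma on log2(FPKM + 1) over 12481 genes, and a gene was called at a Benjamini-Hochberg adjusted p under 0.01 with at least a 2-fold difference in mean FPKM + 1. All 10 subunits passed the filter on low values, Itgb3 and Itgb8 only through their P30 mean and Itga2 only through its P5 mean, so their difference is in part set by the filter. Among them, 3 were called higher at P30 (Itga3, Itgb3 and Itgb8), against 5.89% of all genes tested, and 1 was called higher at P5 (Itga2), against 5.82%. By adjusted p alone, 3 subunits were higher at P30 (8.51% of all genes) and 3 were higher at P5 (Itga2, Itga5 and Itgb1; 10.7% of all genes). Every P30 isolation lay above every P5 isolation for 4 subunits (22.0% of all genes) and below for 3 (33.0% of all genes), and the ages overlapped for Itga6, Itga1 and Itgav. The median log2 fold change of the 10 subunits, P30 minus P5, was 0.27, and that of all genes tested was -0.10.

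**Figure D2:**
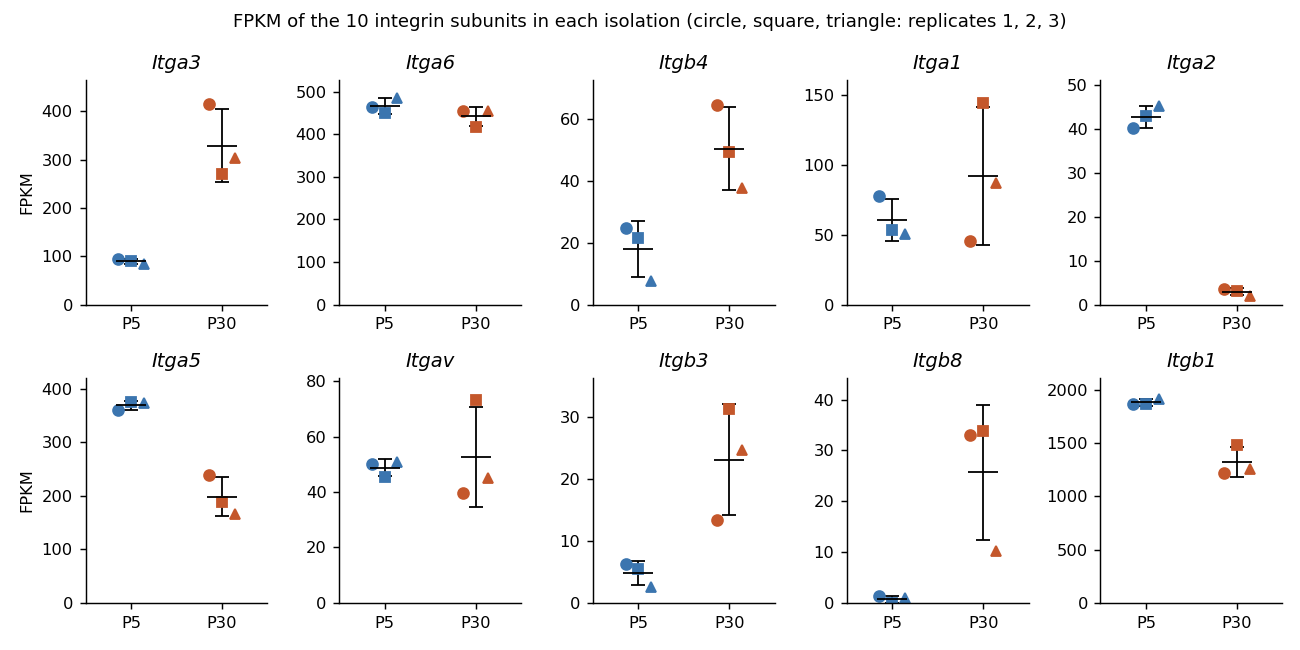
FPKM of each of the 10 integrin subunits at P5 (blue) and P30 (orange), each panel with its own axis from 0. Points are isolations, and the line and bars are the mean and SD of 3 isolations. Itga3, Itgb4, Itgb3 and Itgb8 lie higher in every P30 isolation, and Itga2, Itga5 and Itgb1 lie lower.

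The regions upstream of the transcription start sites of 3 of the called subunits are shown because these called genes carry the contrast between ages and have a RefSeq entry. Entries on GRCm38.p6 were matched for 7 of the 10 subunits, and the other called subunit is Itgb3. The 250 bases before the start site are given 5′ to 3′ on the strand of the gene, with GC boxes (GGGCGG) and ETS cores (CCGGAA), searched on both strands, in capitals. The Itga3 stretch is the first of its start sites, at chr11:95076715-95076964 on the minus strand, that of Itgb8 is chr12:119238277-119238526 on the minus strand, and that of Itga2 is chr13:114932101-114932350 on the minus strand. For Itga2, unlike the others, the bases at this start site were not found in a GENCODE transcript, so its place as the start is uncertain.
Itga3: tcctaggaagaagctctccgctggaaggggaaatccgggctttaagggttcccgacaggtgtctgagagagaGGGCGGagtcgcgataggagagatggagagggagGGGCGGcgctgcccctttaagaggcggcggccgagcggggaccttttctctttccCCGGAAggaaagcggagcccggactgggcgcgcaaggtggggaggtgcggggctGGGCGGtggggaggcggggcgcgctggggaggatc
Itgb8: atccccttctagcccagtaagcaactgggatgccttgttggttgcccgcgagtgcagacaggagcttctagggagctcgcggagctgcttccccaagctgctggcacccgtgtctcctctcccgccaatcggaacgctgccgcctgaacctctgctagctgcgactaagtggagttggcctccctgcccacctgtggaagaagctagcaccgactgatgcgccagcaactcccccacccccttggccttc
Itga2: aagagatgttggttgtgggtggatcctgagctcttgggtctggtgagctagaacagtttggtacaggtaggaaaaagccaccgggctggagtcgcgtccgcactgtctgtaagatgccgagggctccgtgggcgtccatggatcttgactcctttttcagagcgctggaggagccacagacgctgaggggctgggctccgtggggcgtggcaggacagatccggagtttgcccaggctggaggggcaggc
The Itga3 stretch held 3 GC boxes and 1 ETS core and was 67.6% G or C. The stretch before start site 2 of Itga3, not shown, held 1 GC box and 0 ETS cores and was 50.8% G or C. Which start site is used in these cells was not tested. The stretches of Itgb8 and Itga2 held none of these letters, nor an AP-1 site (TGANTCA) or TATA box (TATAAA), and were 62.4% and 60.8% G or C. Of 32851 promoters of the same length, 32.7% held the GC box, 12.0% the ETS core, 6.75% the AP-1 site and 12.4% the TATA box. These matches are descriptions of the sequence, and binding at these regions was not measured.

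Among the laminin receptor chains, Itga3 rose with age, Itga6 was at a high level at both ages and did not pass the test, and Itgb4 was higher in every P30 isolation without passing it. Itga3 encodes the α chain of a receptor for laminins of mature basement membranes. It was at 94.06, 89.97 and 83.87 FPKM in P5 replicates 1, 2 and 3 and at 414.33, 269.42 and 303.66 FPKM at P30, so the lowest P30 isolation was still far above the highest P5 isolation. The mean rose 3.69-fold, from 89.3 ± 5.13 to 329 ± 75.7 FPKM (SD, n = 3), with a log2 fold change of 1.85 (SE 0.16, limma adjusted p = 0.000334). This call was kept in all 15 alternative settings, in which the log2 fold change lay between 1.49 and 1.98. The macrophage and leukocyte markers had the same order of isolations as Itga3 at both ages. Of these 8 markers, 5 were lower in every P30 isolation, against 33.0% of all genes tested. The part of these cells in the difference of Itga3 was not tested.

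Itga6 encodes the second laminin-binding α chain and is strongly transcribed in ECs of many tissues. Its level was 464.94, 449.46 and 485.62 FPKM at P5 and 455.37, 416.23 and 454.20 FPKM at P30. The ages overlapped, and the log2 fold change of -0.08 (SE 0.09, limma adjusted p = 0.502) did not pass the test. The ratio of Itga3 to Itga6 was therefore 0.192 ± 0.0165 at P5 and 0.742 ± 0.146 at P30 (SD, n = 3), higher in each P30 than in each P5 isolation.

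Itgb4, whose product pairs with α6 and links laminin to intermediate filaments in epithelia, was at 24.84, 21.51 and 7.73 FPKM at P5 and at 64.33, 49.14 and 37.47 FPKM at P30. All P30 isolations were above all P5 isolations, with P5 replicate 3 well below the other two. The mean went from 18.0 ± 9.07 to 50.3 ± 13.5 FPKM (SD, n = 3), a log2 fold change of 1.54 (SE 0.42, limma adjusted p = 0.0243) that did not pass the threshold. Relative to Itga6, Itgb4 remained low, with a ratio of 0.0391 ± 0.0202 at P5 and 0.114 ± 0.0296 at P30 (SD, n = 3). The order of isolations of Itgb4 was that of the Schwann cell, melanocyte and Müller cell lists at both ages, and their part in this difference was not tested.

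The collagen receptor chains separated with age, since Itga2 fell to a low level and Itga1, whose isolations overlapped between ages, did not pass the test. Itga2 encodes the α chain of a receptor that prefers fibrillar collagens. It was at 40.15, 42.98 and 45.19 FPKM at P5 and at 3.65, 3.17 and 2.03 FPKM at P30, with a narrow spread within each age and no overlap. The mean fell from 42.8 ± 2.53 to 2.95 ± 0.832 FPKM (SD, n = 3), so that the P5 mean was 14.5-fold the P30 mean, with a log2 fold change of -3.49 (SE 0.24, limma adjusted p = 0.000168). This was the subunit with the smallest adjusted p of the 10, and it was called in all 15 alternatives, with log2 fold changes between -3.85 and -2.59. Itga2 is also transcribed in megakaryocytes and platelets. The summed platelet markers (450 to 504 FPKM at P5, 90.8 to 237 FPKM at P30) mostly follow Pf4, with means of 443 and 68.4 FPKM, whereas Gp1bb (4.57 and 21.9 FPKM) and Nrgn (19.8 and 42.6 FPKM) were higher in every P30 isolation. The part of platelets in the fall of Itga2 was not tested.

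Itga1 encodes the α chain of a receptor that prefers the network-forming type IV collagen of basement membranes. Its level was 77.93, 53.43 and 50.61 FPKM at P5 and 45.62, 143.92 and 86.98 FPKM at P30. The lowest and the highest values were both at P30, and the log2 fold change of 0.47 (SE 0.39, limma adjusted p = 0.359) did not pass the test. It was 0.08 without P30 replicate 2, 0.90 without P30 replicate 1 (limma adjusted p = 0.0417) and 0.12 after scaling to endothelial markers. The isolations had the order of the pericyte markers at both ages, and the part of these cells was not tested. The ratio of Itga2 to Itga1 was 0.738 ± 0.198 at P5 and 0.0418 ± 0.0331 at P30 (SD, n = 3), without overlap.

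The RGD receptor chains differed in direction by chain, with the fibronectin receptor chain Itga5 lower and the αv partners Itgb3 and Itgb8 higher at P30. Itga5, the α chain of the main fibronectin receptor of growing vessels, was at 359.41, 375.24 and 372.58 FPKM at P5 and at 237.72, 188.78 and 166.61 FPKM at P30. The ages did not overlap, and the mean went from 369 ± 8.48 to 198 ± 36.4 FPKM (SD, n = 3). The log2 fold change was -0.91 (SE 0.14, limma adjusted p = 0.00253), and the P5 mean was 1.87-fold the P30 mean, so Itga5 passed the p threshold and missed the 2-fold limit. Without P30 replicate 1, its highest P30 isolation, Itga5 was called with a log2 fold change of -1.05. Without P5 replicate 1, 2 or 3 the p threshold was missed, at log2 fold changes of -0.93, -0.90 and -0.91 (limma adjusted p = 0.0122, 0.0165 and 0.0159).

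Itgav, the α chain shared by the vitronectin receptors and the receptors that bind latent TGF-β, was at 50.16, 45.30 and 50.97 FPKM at P5 and at 39.56, 73.20 and 45.15 FPKM at P30. The P30 isolations lay on both sides of P5, and the log2 fold change of 0.06 (SE 0.23, limma adjusted p = 0.856) did not pass the test. Its sign was negative without P30 replicate 2 (-0.20) and after scaling to endothelial markers (-0.30). The isolations had the order of the fibroblast markers at both ages, and the part of these cells was not tested.

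Itgb3 encodes a partner of αv in ECs and of αIIb in platelets. Its level was 6.24, 5.53 and 2.65 FPKM at P5 and 13.49, 31.34 and 24.71 FPKM at P30, low at P5 and higher in every P30 isolation. The mean rose 4.82-fold, from 4.81 ± 1.90 to 23.2 ± 9.02 FPKM (SD, n = 3), a log2 fold change of 2.04 (SE 0.40, limma adjusted p = 0.00736). The call was close to the threshold and was lost when P5 replicate 1, 2 or 3 or P30 replicate 2 or 3 was left out, with log2 fold changes of 2.23, 2.16, 1.74, 1.79 and 1.96 and limma adjusted p between 0.0176 and 0.0284. It was also lost without a trend in the fit (limma adjusted p = 0.0118), without the filter on low values (0.0501) and after scaling to endothelial markers (0.0118). The order of isolations of Itgb3 was that of the pericyte markers at both ages, whose sum ranged from 497 to 1765 FPKM at P5 and from 1872 to 6290 FPKM at P30, and the part of these cells was not tested. Itga2b, the platelet partner, stayed between 2.06 and 5.61 FPKM in the 6 isolations and was too low to be tested.

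Itgb8 encodes the β chain of the αvβ8 receptor, which binds latent TGF-β and takes part in its activation. It was at 1.36, 0.00 and 0.87 FPKM at P5 and at 33.00, 33.75 and 10.30 FPKM at P30, so it was near or at 0 in the young isolations and present in each P30 isolation. The means were 0.743 ± 0.689 and 25.7 ± 13.3 FPKM (SD, n = 3), with a log2 fold change of 3.85 (SE 0.57, limma adjusted p = 0.00231). Because of the P5 isolation listed at 0, this value depends on the pseudocount and no fold of the means is given. The call was lost without P5 replicate 2 (log2 fold change 3.50, limma adjusted p = 0.0105), without P5 replicate 3 (3.95, limma adjusted p = 0.0124) and without P30 replicate 2 (3.58, limma adjusted p = 0.01), and without the filter on low values (limma adjusted p = 0.0245). The lowest P30 value was in replicate 3. This isolation also had the lowest P30 sums of the RPE (522 FPKM), melanocyte (141 FPKM), photoreceptor, Müller cell, Schwann cell, smooth muscle and surface epithelium markers. The order of isolations of Itgb8 was that of the RPE, photoreceptor and surface epithelium lists at P5 and of the smooth muscle list at P30. No list had its order at both ages, and the part of these cells was not tested.

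Itgb1, the β chain shared by the laminin, collagen and fibronectin receptors, was the most abundant subunit at both ages. It was at 1862.34, 1866.35 and 1916.88 FPKM at P5 and at 1222.11, 1486.07 and 1259.37 FPKM at P30, lower in every P30 isolation. The isolations of Itgb1 had the order of the cell cycle markers at both ages, and a link between them was not tested. The log2 fold change was -0.51 (SE 0.11, limma adjusted p = 0.00923), and with the P5 mean at 1.42-fold the P30 mean it passed the p threshold but not the 2-fold limit. This pass was narrow, and the p threshold was missed in 10 of the 15 alternatives. Among them were the fits without P5 replicate 1, 2 or 3 and P30 replicate 1 or 3, with log2 fold changes of -0.52, -0.52, -0.50, -0.46 and -0.48 and limma adjusted p between 0.0193 and 0.0446.

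**Figure D3:**
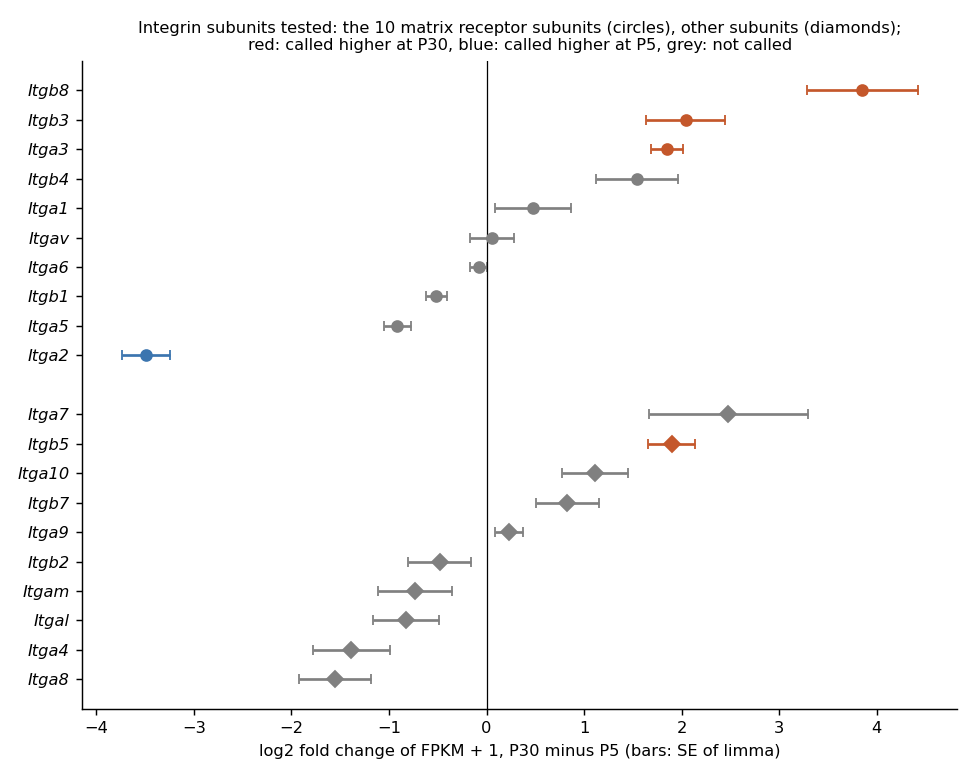
Log2 fold change of FPKM + 1, P30 minus P5, of the 10 matrix receptor subunits (circles) and of the other integrin subunits tested (diamonds), with bars for the limma SE. Itgb8, Itgb3, Itga3 and Itgb5 were called higher at P30 (red), Itga2 was called higher at P5 (blue), and the others were not called (grey).

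The order of the subunits by FPKM changed between ages. At P5 it ran from Itgb1 over Itga6, Itga5, Itga3, Itga1, Itgav, Itga2, Itgb4 and Itgb3 to Itgb8, and of these neighbours only Itga1 and Itgav had ranges that overlapped. At P30, Itga3 stood above Itga5, and Itga2 was last. The P30 order was Itgb1, Itga6, Itga3, Itga5, Itga1, Itgav, Itgb4, Itgb8, Itgb3 and Itga2, with overlapping ranges between Itga1 and Itgav, Itgav and Itgb4, and Itgb8 and Itgb3.

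Taken as shares of the summed FPKM of the 6 α chains, the laminin-binding chains made up more and the RGD-binding chains less of the total at P30. The sum itself was 1077 ± 18.1 FPKM at P5 and 1117 ± 71.4 FPKM at P30 (SD, n = 3), with overlapping isolations. Laminin-binding chains made up 51.4%, 51.1% and 52.3% of it at P5 and 72.7%, 62.6% and 71.6% at P30, with P30 replicate 2 the lowest of its age. RGD-binding chains made up 38.8% ± 1.06 at P5 and 22.4% ± 2.09 at P30 (SD, n = 3), also without overlap. The collagen-binding share was 9.60% ± 1.11 at P5 and 8.65% ± 4.66 at P30 (SD, n = 3), with overlapping isolations, and the difference of -0.943 percentage points was 1.33 without P30 replicate 1. Within these classes, Itga3 went from 8.29% ± 0.515 to 29.3% ± 5.04 and Itga5 from 34.3% ± 1.22 to 17.6% ± 2.09, while Itga6 held 43.3% ± 1.12 and 39.7% ± 2.81 (SD, n = 3). Itga2 went from 3.97% ± 0.243 to 0.262% ± 0.0615, and Itga1 (5.63% ± 1.35 and 8.39% ± 4.67) and Itgav (4.53% ± 0.211 and 4.75% ± 1.74) overlapped between ages (SD, n = 3). Shares are bound to each other by their sum and were not tested.

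**Figure D4:**
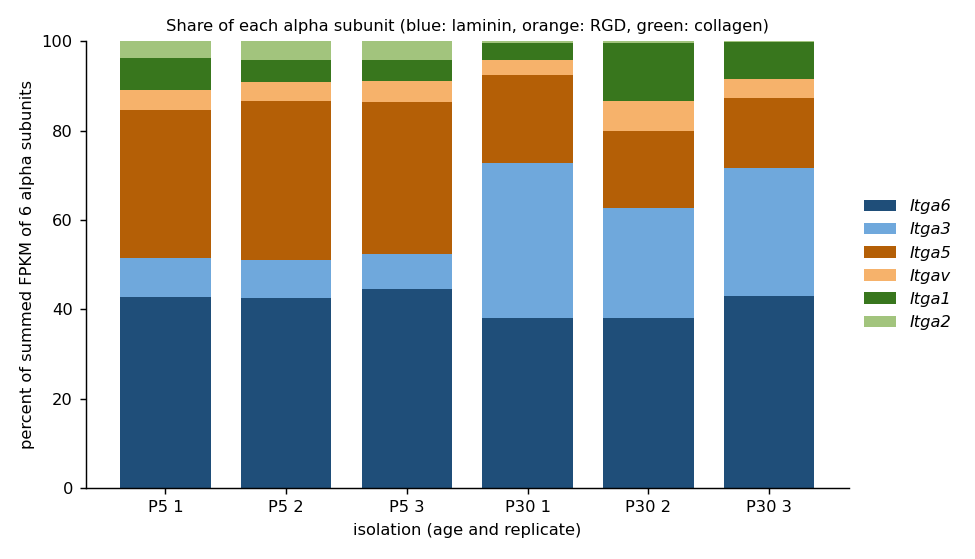
Share of each α chain in the summed FPKM of the 6 α chains, in percent, as stacked bars for each isolation. The laminin-binding chains Itga6 and Itga3 (blue) together take 51.1% to 52.3% at P5 and 62.6% to 72.7% at P30, and the share of Itga5 (dark orange) is smaller at P30.

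On the β side, Itgb1 made up 98.8% ± 0.587 of the summed FPKM of the 4 β chains at P5 and 93.0% ± 1.44 at P30 (SD, n = 3). Their sum was 1905 ± 19.7 FPKM at P5 and 1422 ± 155 FPKM at P30 (SD, n = 3), lower in each P30 isolation. The 3 other β chains of this sum stayed small in share, at 0.949% and 3.57% for Itgb4, 0.253% and 1.61% for Itgb3, and 0.0390% and 1.79% for Itgb8 at P5 and P30. This sum leaves out Itgb5, described below, which had means of 54.8 FPKM at P5 and 203 FPKM at P30. These means were above those of each of the 3 chains, so the share of Itgb1 among all β chains was lower than given here. The ratio of the summed α chains to Itgb1 was 0.573 ± 0.00956 at P5 and 0.852 ± 0.122 at P30 (SD, n = 3), with no overlap. Relative to Itgav, the partner of both, Itgb3 was at 0.0995 ± 0.0412 and 0.439 ± 0.104, and Itgb8 at 0.0147 ± 0.0137 and 0.508 ± 0.306, at P5 and P30 (SD, n = 3). Each of these ratios was higher in every P30 than in every P5 isolation.

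The rest of the integrin family held 1 more called subunit. Of 17 other subunits listed, 10 passed the filter. By limma 1 was called higher at P30 and 0 were called higher at P5, against 5.89% and 5.82% of all genes tested. At an unadjusted limma p under 0.05 the numbers were 4 and 3, against 20.7% and 28.8% of all genes tested. The median log2 fold change of these 10 subunits was -0.12. The called subunit was Itgb5, the β chain of the αvβ5 vitronectin receptor. It was at 71.52, 54.63 and 38.28 FPKM at P5 and at 158.70, 231.21 and 219.71 FPKM at P30, a log2 fold change of 1.90 (SE 0.24, limma adjusted p = 0.00136). It was thus the most abundant of the αv-specific β chains at both ages, with a ratio to Itgav of 1.13 ± 0.344 at P5 and 4.01 ± 0.854 at P30 (SD, n = 3). Its order of isolations was that of the pericyte markers at both ages, and their part was not tested.

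Other matrix-binding chains did not pass the limits. Itga8, an RGD-binding chain, was at 54.45, 49.65 and 95.05 FPKM at P5 and at 14.58, 35.95 and 17.60 FPKM at P30 (log2 fold change -1.55, limma adjusted p = 0.0153). Itga7, a laminin-binding chain of muscle cells, was at 28.20, 15.62 and 3.43 FPKM at P5 and at 27.40, 164.24 and 78.44 FPKM at P30 (log2 fold change 2.48, limma adjusted p = 0.0464). Itga10, a collagen-binding chain, was at 8.80, 6.14 and 4.89 FPKM at P5 and at 10.40, 21.61 and 15.19 FPKM at P30 (log2 fold change 1.11, limma adjusted p = 0.0372). Itga7 and Itga10 also shared the pericyte order of isolations at both ages, and Itga8 shared that of the fibroblast markers. Itga9, which binds tenascin and VCAM-1, was at 97.5 ± 0.560 FPKM at P5 and 116 ± 19.9 FPKM at P30 (SD, n = 3; log2 fold change 0.23, limma adjusted p = 0.231). Itga11 and Itgb6 were below 1 FPKM in every isolation.

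Chains of leukocyte receptors had low to moderate values. Itga4, which pairs with β1 or β7, was at 56.51, 49.73 and 47.85 FPKM at P5 and at 10.45, 36.70 and 17.45 FPKM at P30 (log2 fold change -1.39, limma adjusted p = 0.0285), and its isolations also had the order of the pericyte markers at both ages. Log2 fold changes were -0.82 for Itgal, -0.73 for Itgam, -0.48 for Itgb2 and 0.83 for Itgb7, with limma adjusted p of 0.0919, 0.163, 0.269 and 0.0784. The isolations of Itgam had the order of the macrophage and leukocyte markers at both ages. Without P30 replicate 2, 2 of the 10 other subunits tested were called higher at P5.

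Transcripts of proteins that these receptors bind, most of them in the matrix, were examined in the same isolations. The RGD ligand list also held proteins that hold latent TGF-β at the cell surface, such as Lrrc32, and these count as ligands only in that wider sense. Of 41 ligand genes listed, 38 were tested, 10 were called higher at P30, 6 were called higher at P5 and 22 were not called, where 5.89% and 5.82% of all genes were called, with a median log2 fold change of 0.71. Laminin chains moved in both directions. Of 9 laminin chains tested, 2 were called higher at P30 and 4 at P5. Lamb2, the β chain of mature vascular laminins, rose from 341.94, 314.13 and 237.69 FPKM to 724.56, 710.14 and 714.92 FPKM (log2 fold change 1.28, limma adjusted p = 0.000724), and Lama3 rose with a log2 fold change of 1.20 (limma adjusted p = 0.00137). Lama4, the α chain of the main endothelial laminin of growing vessels, fell from 588.72, 593.35 and 654.20 FPKM to 192.93, 279.91 and 206.99 FPKM (log2 fold change -1.45, limma adjusted p = 0.000551). Lama1, Lamb1 and Lamc1 fell as well, with log2 fold changes of -2.85, -1.51 and -1.04 (limma adjusted p = 0.00328, 0.00303 and 0.00178), and Lama1 passed the filter on low values only through P5. Lama5, the α chain of laminins that both the α3 and the α6 receptors bind, was at 289 ± 36.3 FPKM at P5 and 361 ± 23.9 FPKM at P30 (SD, n = 3) and was not called (log2 fold change 0.33, limma adjusted p = 0.066). The number called higher at P5 was 2 without P5 replicate 1, 1 without P5 replicate 2 or 3 and 2 without P30 replicate 1, and the number called higher at P30 was 1 without P5 replicate 2.

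Among 13 collagen chains, all tested, 3 were called higher at P30 and 1 higher at P5, where 5.89% and 5.82% of all genes were called. Col4a1, the main chain of type IV collagen, fell from 4127.72, 4280.90 and 4314.27 FPKM to 1668.55, 2254.45 and 1417.27 FPKM (log2 fold change -1.28, limma adjusted p = 0.00161). Col4a3 and Col4a4, chains of the collagen IV network of specialised basement membranes, rose with log2 fold changes of 2.80 and 2.19 (limma adjusted p = 0.00401 and 0.00626), from means of 2.82 and 2.40 FPKM to 26.2 and 15.0 FPKM. Both passed the filter on low values only through P30, so their difference is in part set by it. Col6a2, a chain of beaded filaments at the edge of basement membranes, rose with a log2 fold change of 2.06 (limma adjusted p = 0.00901). The fibrillar chains Col1a1, Col1a2 and Col3a1, ligands of the receptor with the Itga2 product, overlapped between ages with log2 fold changes of 0.78, 0.67 and 0.75 (limma adjusted p = 0.222, 0.187 and 0.207). Of the collagen chains, 1 was called higher at P30 without P5 replicate 1 and none without P5 replicate 2, P5 replicate 3 or P30 replicate 2. By limma, 0 were called higher at P5 without P5 replicate 2 or 3 and 4 without P30 replicate 2.

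Among the RGD ligands, 16 of 17 were tested, 5 were called higher at P30 and 1 higher at P5, where 5.89% and 5.82% of all genes were called. Spp1 (osteopontin) and Vtn (vitronectin), ligands of the αv receptors, rose most. Spp1 was at 21.72, 9.88 and 6.48 FPKM at P5 and at 452.05, 2411.69 and 818.00 FPKM at P30 (log2 fold change 6.30, limma adjusted p = 0.000506), and Vtn was at 3.55, 2.70 and 1.09 FPKM at P5 and at 86.67, 424.98 and 162.13 FPKM at P30 (5.80, limma adjusted p = 0.000463). Vtn passed the filter on low values only through P30. Both had their highest value in P30 replicate 2, where the pericyte, fibroblast and smooth muscle markers were also highest, and the part of these cells was not tested. Lrrc32, which holds latent TGF-β at the cell surface, rose from 102.89, 118.63 and 54.10 FPKM to 578.00, 468.99 and 413.64 FPKM (log2 fold change 2.45, limma adjusted p = 0.000898). Thbs1 (thrombospondin 1) and Tgfb3 rose with log2 fold changes of 1.61 and 1.46 (limma adjusted p = 0.0046 and 0.00251), and Fbn2 (fibrillin 2) fell with -2.55 (limma adjusted p = 0.00397). Fn1 (fibronectin), the ligand of the receptor with the Itga5 product, was at 320.28, 322.83 and 304.82 FPKM at P5 and at 194.83, 220.07 and 119.99 FPKM at P30, without overlap (log2 fold change -0.87, limma adjusted p = 0.0166), and was not called. Tgfb1 was at 439 ± 28.8 FPKM at P5 and 476 ± 60.4 FPKM at P30 (SD, n = 3; log2 fold change 0.11, limma adjusted p = 0.487). The number called higher at P30 was 3 without P5 replicate 2 or 3. The call of Fbn2 was the only one higher at P5, and it was lost without P5 replicate 2 or 3 or P30 replicate 3, while 2 genes were called without P30 replicate 1.

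**Figure D5:**
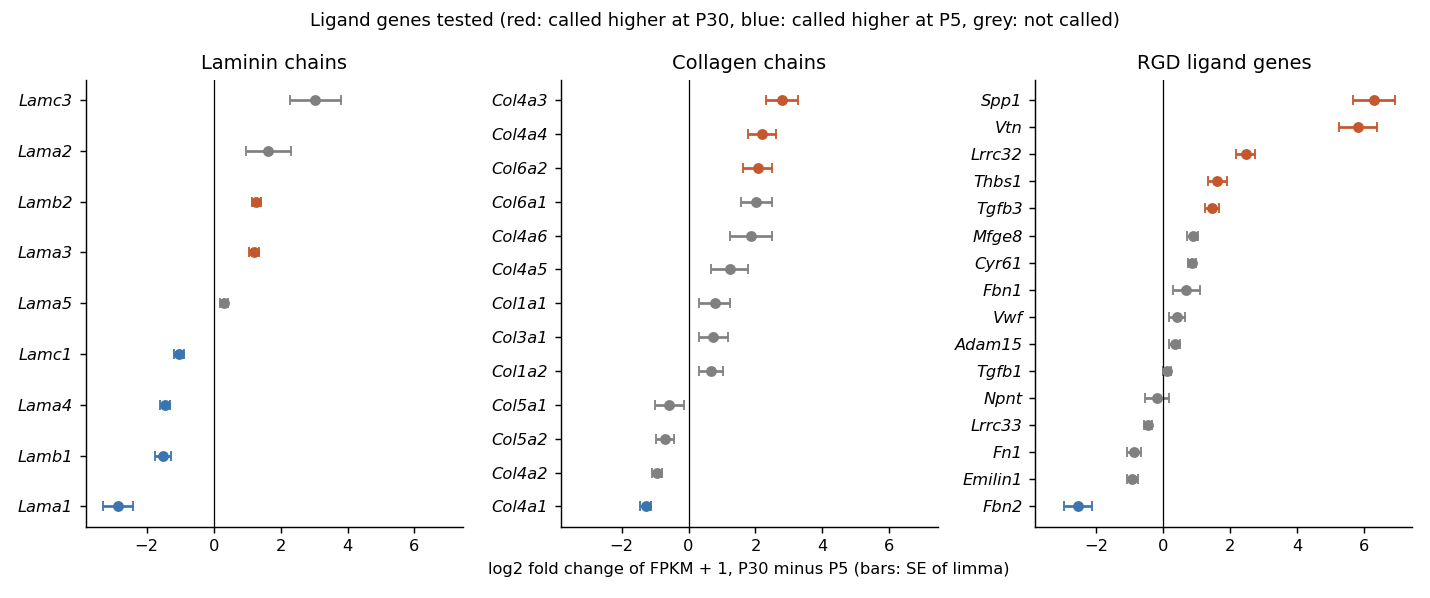
Log2 fold change of FPKM + 1, P30 minus P5, of the laminin chains, collagen chains and RGD ligand genes tested, with bars for the limma SE. Called genes are red (higher at P30) or blue (higher at P5), and the 4 blue laminin chains lie below 2 red ones while Spp1 and Vtn lie furthest to the right.

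Proteins that bind integrins at the cytoplasmic side or in the membrane were compared last. Of 47 adhesion complex genes tested, 5 were called higher at P30, 2 higher at P5 and 40 were not called, where 5.89% and 5.82% of all genes were called, with a median log2 fold change of 0.20. Talins and kindlins bind the β chain tail and switch the receptor on, and the most abundant of each did not pass the test. Tln1 was at 397.20, 398.68 and 396.55 FPKM at P5 and at 349.19, 347.72 and 369.43 FPKM at P30 (log2 fold change -0.16, limma adjusted p = 0.156), and Fermt2 had a log2 fold change of 0.20 (limma adjusted p = 0.157). Tln2, the second talin, fell from 35.23, 31.22 and 31.04 FPKM to 9.87, 14.24 and 7.52 FPKM (log2 fold change -1.58, limma adjusted p = 0.00295). Apbb1ip (RIAM), which brings talin to the membrane in leukocytes, fell from 32.22, 33.78 and 34.21 FPKM to 7.77, 14.52 and 14.82 FPKM (log2 fold change -1.41, limma adjusted p = 0.00562). Of the 8 macrophage and leukocyte markers, 5 were lower in every P30 isolation, against 33.0% of all genes tested, and 3 overlapped between ages. The part of these cells in the fall of Apbb1ip was not tested. The calls of Tln2 and Apbb1ip were lost when any 1 of the 3 P5 isolations was left out, where 0 genes of the list were called higher at P5 by limma.

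Of the 5 genes called higher at P30, 4 were among the 18 adaptors and scaffolds between integrin tails and actin, and the other was Lgals3bp. In this group of 18, 0 were called higher at P5. Over all genes tested, 5.89% were called higher at P30 and 5.82% higher at P5. Lims2 (PINCH2), a partner of the integrin-linked kinase, was at 202.75, 181.34 and 106.23 FPKM at P5 and at 869.00, 620.04 and 777.65 FPKM at P30 (log2 fold change 2.24, limma adjusted p = 0.000743). The kinase itself, Ilk, was at 208 ± 12.0 FPKM at P5 and 351 ± 76.7 FPKM at P30 (SD, n = 3; log2 fold change 0.73, limma adjusted p = 0.0114) and was not called. The tensins Tns1 and Tenc1 (Tns2) rose with log2 fold changes of 1.33 and 1.24 (limma adjusted p = 0.000524 and 0.000284). Kank1, which binds talin, rose with 1.15 (limma adjusted p = 0.00663), and Lgals3bp, a secreted glycoprotein that binds β1 integrins, rose with 1.47 (limma adjusted p = 0.000568).

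The positions of the 10 genes on mm9 were chr11:94905788-94938115 for Itga3, chr2:71583673-71696473 for Itga6, chr11:115836023-115869726 for Itgb4, chr13:115748287-115892172 for Itga1, chr13:115626124-115722249 for Itga2, chr15:103174720-103197194 for Itga5, chr2:83564554-83647073 for Itgav, chr11:104469370-104531790 for Itgb3, chr12:120396495-120477275 for Itgb8 and chr8:131209554-131257100 for Itgb1. Exons of Itgb4 and Itgav shared 537 and 634 bases with a noncoding RNA on the opposite strand (B230344G16Rik and Gm13684), and whether reads were assigned by strand is not given in the sources used here, so reads of these pairs cannot be told apart. Pelo lies inside Itga1 on the same strand and shares no exon with it.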

How the data were processed

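RNA of sorted choroid ECs (3 isolations per age) was made into libraries with the TruSeq RNA kit. According to the submitters' processing notes and the paper, the authors used CASAVA 1.8.2, FastQC, TopHat and CuffLinks on mm9. The versions of the last 3 tools are not given in the sources used here. They deposited 1 FPKM value per gene symbol and isolation, with GC and upper quartile normalization. The authors' DESeq2 test ran on read counts, which were not used here. Depth is therefore unknown and no counting interval is given. Ratios of FPKM under 2 did not pile up at single values, since the fullest bin of 0.05 in log2 ratio held 2.86% to 4.58% of genes. FPKM summed to between 1432700 and 1734639 per isolation, and 33.4% to 37.3% of genes were listed at 0.

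Ages and replicates came from the labels. P-values measure only the spread among these isolations. The deposited FPKM values were put on a log2 scale after adding 1, and the ages were compared with limma (version 3.58.1, R 4.3.3; lmFit, then eBayes with a trend, two-sided, all 6 isolations, age as the single term). Genes entered the fit where either age averaged 5 FPKM or more, and the Benjamini-Hochberg adjustment ran over all of them. A low gene's change is understated on this scale. The call needed an adjusted p below 0.01 together with means of FPKM + 1 that differed 2-fold or more. Log2 fold changes and SE are those of limma. The fit was also run on simulated data, with large planted changes in well-expressed genes and the same spread at both ages. In the real data the median SD on the log2 scale was 0.131 at P5 and 0.256 at P30. The simulated run therefore does not bear on calls near the 2-fold limit or of genes near 0. Tables and plots used Python 3.11.15, numpy 2.4.6, pandas 2.3.3 and matplotlib 3.10.9. Positions are those of GENCODE on mm9, and promoters those of RefSeq on GRCm38.p6.

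The subunits, the ligand, adhesion complex and marker lists and the tests were chosen with earlier results of these data known. Named were all 10 subunits, every other integrin subunit tested, and in each other list the 4 largest rises and 4 largest falls among called genes. Tgfb3, Kank1, Lama5, the fibrillar collagens, Fn1, Tgfb1, Tln1, Fermt2 and Ilk, the markers Cdh5, Plvap, Emcn, Pf4, Gp1bb and Nrgn, and the untested Itga2b, Itga11 and Itgb6, were named outside this rule, after their values were seen. 1 gene of the lists was not analysed here. Alternatives were 2 other pseudocounts, a lower filter and none, no trend, quantile normalization, scaling to endothelial markers, the limma coefficient as fold, a replicate block, and each isolation left out.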

Additional observations from a re-analysis of the deposited data

How the results depend on the processing

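Of the subunits, Itga3 and Itga2 kept their calls in all 15 alternatives, Itgb8 lost its call in 4 and Itgb3 in 9, and Itgb4 was called in 1 (replicate block, limma adjusted p = 0.00807). Itga5 was called in 2, after scaling to endothelial markers (log2 fold change -1.27) and without P30 replicate 1. Without a filter on low values, which raises the number of tests to 22026, calls at P30 and P5 fell to 242 and 296 over all genes, 1 subunit was called higher at P30, 0 other integrins were, laminin chains gave 1 and 1, collagens 0 and 0, RGD ligands 0 and 0, and adhesion complex genes 3 and 0. Scaling to endothelial markers moved the median log2 fold change of all genes from -0.10 to -0.46 and the share of calls higher at P30 from 50.3% to 23.3%, with 1634 genes called higher at P5. It gave 2 subunits, 1 other integrin, 2 collagens and 3 RGD ligands higher at P5, and 0 laminin chains and 2 adhesion complex genes higher at P30, and Itgav went to -0.30. Relative to the median of all genes, Itgav was at 0.15 in the reported fit and at 0.16 after this scaling. Quantile normalization gave 2 collagens higher at P5. Leaving out 1 isolation gave 396 to 849 genes higher at P30 and 291 to 754 higher at P5, and 1 to 3 and 1 to 2 subunits. Other integrins higher at P5 numbered 0 to 2, laminin chains 1 to 2 and 1 to 4, collagens 0 to 3 and 0 to 4, RGD ligands 3 to 6 and 0 to 2, and adhesion complex genes 4 to 5 and 0 to 3, and Itgav lay between -0.20 and 0.23. The replicate numbers did not pair the isolations, since deviations of same-numbered isolations correlated at -0.0905 to -0.0305 and 0 of 6 isolations correlated best with their own number. A replicate block gave 585 and 524 genes, and 3 subunits higher at P30 (with Itgb4 and without Itgb3, limma adjusted p = 0.017), 1 collagen and 3 RGD ligands higher at P30, and 1 adhesion complex gene higher at P5. With 1 isolation left out, the laminin-binding share differed between ages by 15.5 to 20.5 percentage points and the RGD-binding share by -17.2 to -15.2. With 3 isolations per age, leaving out 1 cannot move the mean of an age by more than its SD. Shifts smaller than that spread are therefore no check of the shares and ratios. The cause of these changes was not tested. Depth is unknown, so values near 0, as for Itgb8 at P5, have no counting error.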
